A study of Mus musculus with 2 samples.

Results

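Interferon response genes were examined in haematopoietic stem cells of mice, the self-renewing source of every blood lineage. The 49 genes had been chosen by name for their known part in sensing viral nucleic acid, in interferon signalling or in antiviral defence. A probe set counted for a gene when that gene was the only one the platform annotation gave it. By this rule 78 of 45037 probe sets belonged to 47 of the 49 genes, out of 18193 genes with a probe set of their own. Isg15, a ubiquitin-like modifier, was matched only by a probe set that also carries Gm9706, and Ifi44 was not analysed here. Stem cells of Wip1 knockout mice were compared with stem cells of wild-type mice, all aged 3 months, on 1 Affymetrix array for each genotype. Wip1 is the phosphatase product of Ppm1d. The knockout allele, the sorting gates, the number of animals and the mouse strain are not known here.

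Type I interferons bind a receptor made of Ifnar1 and Ifnar2, whose kinases Jak1 and Tyk2 activate a transcription complex that holds Stat2 and Irf9. This complex binds the interferon-stimulated response element in the promoters of antiviral genes, and interferon gamma uses its own receptor and drives immune GTPase genes most strongly. Haematopoietic stem cells are known to keep part of this programme on without infection, and interferon is known to bring dormant stem cells into division.

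Over 1 in 2 of the listed genes with a promoter sequence at hand match a response element motif near their start site. Such a match is called the element below, and binding to it was not measured. The motif GAAANNGAAA, or TTTCNNTTTC when read on the other strand, was searched in RefSeq promoters (GRCm38.p6, 250 bases before to 50 after each start site), on both strands and with overlapping matches counted. Of the 37 listed genes with a promoter in that table, 20 (54.1%) had the motif, against 3.99% of all 27025 genes. Counted by promoter, the shares were 21 of 44 (47.7%) for the listed genes and 3.44% of all 32851 promoters. The 12 listed genes with no entry were Ifi27l2a, Ifi27, Dhx58, Mx1, Mx2, Oas2, Usp18, Gbp6, Iigp1, Parp9, Parp14 and Zbp1.

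Stretches of 60 bases before the start site are shown for some of the listed genes that were lower or higher in the knockout, so that the element can be read beside the values. Capitals mark every base inside a motif match. The first 4 belong to genes that were lower in the knockout.
Ifit1, chr19:34640769-34640828, plus strand: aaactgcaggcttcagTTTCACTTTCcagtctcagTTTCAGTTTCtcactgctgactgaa
Cxcl10, chr5:92349068-92349127, minus strand: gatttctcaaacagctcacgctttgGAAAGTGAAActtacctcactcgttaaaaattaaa
Gbp3, chr3:142559977-142560036, plus strand: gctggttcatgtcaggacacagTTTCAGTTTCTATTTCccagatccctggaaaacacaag
Bst2, chr8:71537565-71537624, minus strand: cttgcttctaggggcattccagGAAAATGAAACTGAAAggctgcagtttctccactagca

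The next 4 belong to genes that were higher in the knockout, and the last is that of Isg15.
Ifit3, chr19:34583365-34583424, plus strand: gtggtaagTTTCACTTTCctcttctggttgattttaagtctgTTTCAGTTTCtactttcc
Oas1a, chr5:120907526-120907585, minus strand: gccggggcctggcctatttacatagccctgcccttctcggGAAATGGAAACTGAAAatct
Irf2, chr8:46739495-46739554, plus strand: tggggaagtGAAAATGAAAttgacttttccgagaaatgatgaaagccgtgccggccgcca
Irgm1, chr11:48871421-48871480, minus strand: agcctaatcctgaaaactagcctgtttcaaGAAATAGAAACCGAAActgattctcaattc
Isg15, chr4:156200856-156200915, minus strand: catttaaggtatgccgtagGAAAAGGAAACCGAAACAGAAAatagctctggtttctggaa

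Ifit1 and Ifit3 both lie on chromosome 19 and each has the spaced pair of elements, but the 2 genes stood on opposite sides of 0. Ifit1 was lower in the knockout and Ifit3 higher, with the values given below. Irgm1, Gbp3, Bst2, Oas1a and Isg15 hold overlapping copies of the element, and these genes also went both ways. The difference of Irgm1 (0.15) is within the SD between probe sets given below, and Ifit3 lay just above the array medians.

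All values are the intensity the authors deposited for each probe set, on a linear scale. Differences are log2 knockout minus wild type, centred so that the median over detected gene probe sets was 0. A gene was represented by its brightest probe set and taken as detected if either array exceeded its own median (25.9 in the knockout and 25.2 in the wild type). A value under the median was set to it, so such a difference is a lower bound. With 1 array for each genotype there is no test, and every difference below compares these 2 samples. The only error at hand is an SD of 0.22, the disagreement among a gene's detected probe sets over 5084 genes, which holds no variation between animals or arrays. Fewer cells of a type and less RNA per cell cannot be told apart in such samples. Intensities of single genes were not ranked against each other, since probe sets differ in their affinity. The same limit applies to shares of genes above a percentile and to genes called dim, which do set different probe sets side by side.

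The targeted gene did not separate the arrays. Its probe sets read 160 and 59.0 on the knockout array and 167 and 55.6 on the wild-type array, and where they lie relative to the deleted part is not known here. Stem cell markers were present, with 10 of 10 measured markers detected and 9 above the 75th percentile of both arrays. They also differed between the arrays, with Hlf (0.70) at least 1.5-fold higher in the knockout and Slamf1 (-0.66) and Tek (-0.59) at least 1.5-fold lower. All 7 neutrophil markers were also above it, summing to 10249 in the knockout and 12485 in the wild type, or 6583 in the knockout and 6988 in the wild type without Mpo, so markers of maturing neutrophils gave signal in both samples. Sex-linked transcripts differed as well, with Xist at 3778 in the knockout and 6227 in the wild type and Eif2s3y at 149 in the knockout and 31.8 in the wild type.

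Most of the listed genes gave signal in both samples. All 47 genes were detected, against 62.9% of all genes, and 39 of 47 (83.0%) lay above the 75th percentile of both arrays, against 36.9% of all genes. The 8 others were Zbp1, Ifit3, Mx1, Mx2, Oas3, Gbp6, Ifnar1 and Stat2. Of the 78 probe sets, 72 were detected, and the other 6 belonged to Samhd1, Dhx58, Ifnar1 and Stat2.

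**Figure D1:**
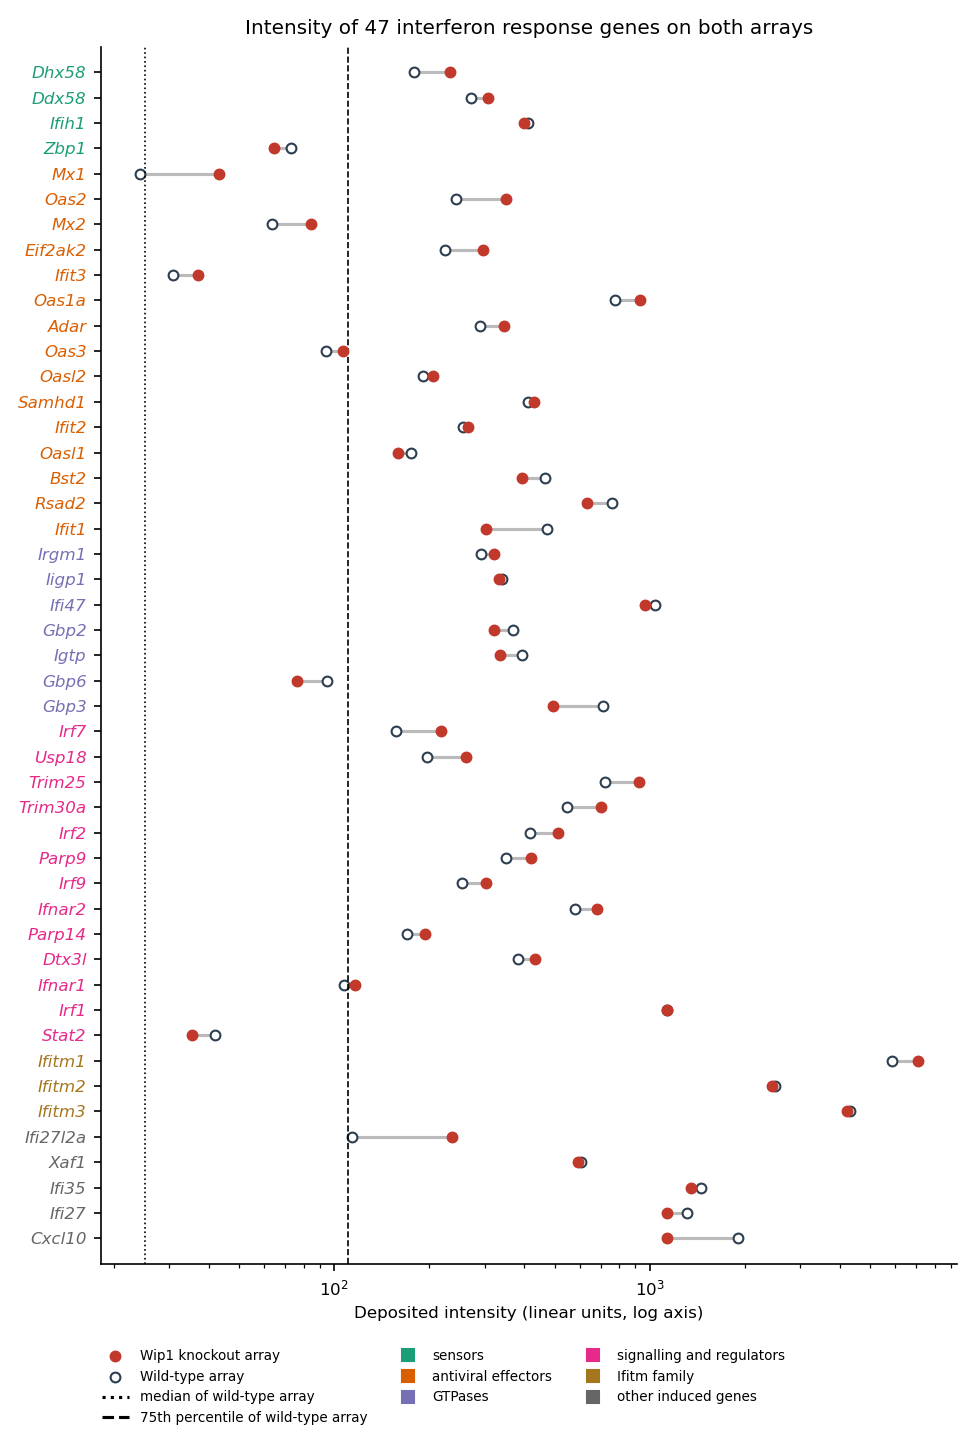
Deposited intensity (linear units on a log axis) of the brightest probe set of each of the 47 genes, grouped by function, with a filled point for the Wip1 knockout array and an open point for the wild-type array. Dotted and dashed lines mark the median and the 75th percentile of the wild-type array, and 39 of the 47 genes lie above the 75th percentile of both arrays.

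Differences between the samples were small and went both ways. In the knockout, 28 genes (59.6%) were higher and 19 lower, against 50.0% of all 11440 detected genes each way. Their median difference was 0.14, against 0.0002 over all detected genes. Of the 47 genes, 2 (4.26%) were at least 1.5-fold higher, against 2.30% of all detected genes, and 2 (4.26%) were at least 1.5-fold lower, against 1.55%. At 2-fold there was 1 higher gene and no lower gene, against 0.455% and 0.210% of all detected genes. A single gene of 47 moves the shares past 1.5-fold and 2-fold by about as much as they stand from the background. Those counts therefore show nothing particular to the list. Of the 47 genes, 22 (46.8%) differed by no more than the SD between probe sets, against 66.5% of all detected genes. This share and that of higher genes stand further from the background, and neither was tested.

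**Figure D2:**
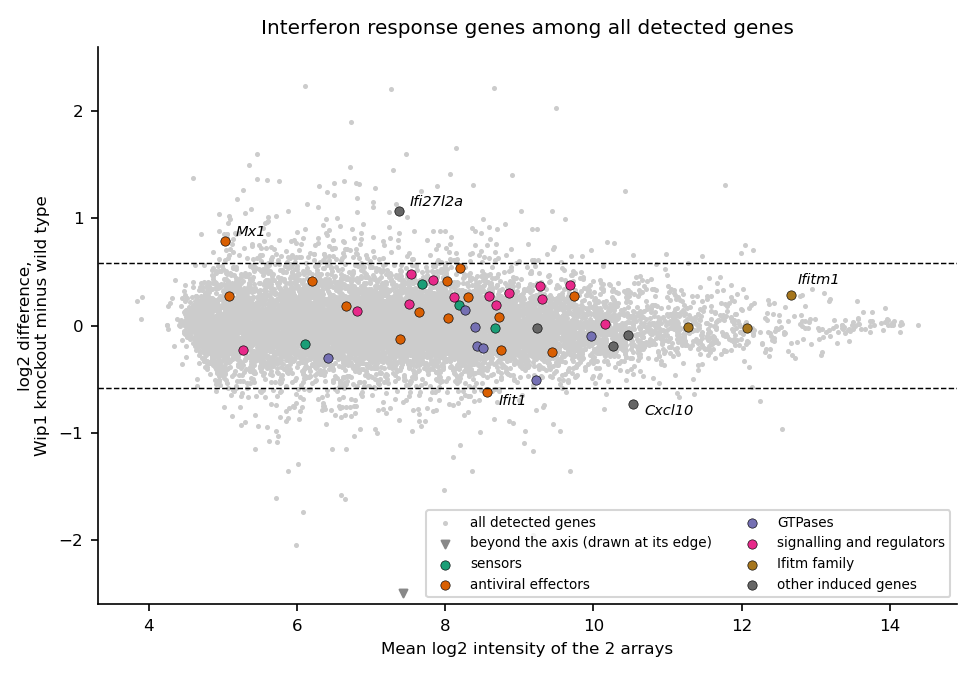
Each point is a gene, with its mean log2 intensity across, and its log2 difference (knockout minus wild type) up the axis. The 47 interferon response genes are coloured by function over all 11440 detected genes in grey, and dashed lines mark 1.5-fold, which Ifi27l2a and Mx1 pass upward and Ifit1 and Cxcl10 downward. A grey triangle marks 1 gene beyond the axis.

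The cytosolic sensors of viral nucleic acid were spread around 0, with 2 of 4 higher. Dhx58, a helicase that tunes signalling by the other RNA helicases, read 233 in the knockout and 180 in the wild type, a difference of 0.39. Its 2 other probe sets were under the median on both arrays. Ddx58, the sensor of RNA ends, read 308 in the knockout and 272 in the wild type by its brightest probe set, a difference of 0.19. Its dimmer probe sets differed by 0.47 and -0.06, so the gene's own probes did not share a direction. Ifih1, the sensor of long double-stranded RNA, read 401 in the knockout and 410 in the wild type, and its difference of -0.02 turned to 0.0024 after loess. Zbp1, which recognises left-handed nucleic acid and can set off cell death, was dim, at 64.3 in the knockout and 73.0 in the wild type, a difference of -0.17.

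Of the 15 measured antiviral effectors 11 were higher in the knockout and 4 lower, with a median difference of 0.19. This median was 0.13 after quantile normalization, 0.13 with the median over a gene's probe sets, and 0.08 with the floor at the 75th percentile, where 7 of 11 detected genes were higher. The pair of Mx genes, dynamin-like GTPases that block viral replication, were both higher. Mx1 read 43.2 in the knockout, while its 24.3 in the wild type lay under the array's median, so its difference is at least 0.79. Mx2 read 84.4 in the knockout and 63.6 in the wild type, a difference of 0.42. Both are dim, each rests on 1 probe set, and Mx1 is measured by a probe set of the class that matches several transcripts.

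The oligoadenylate synthetases make the messenger that activates RNase L. Oas2 read 351 in the knockout and 244 in the wild type, a difference of 0.54 (1.45-fold). Oas1a read 932 in the knockout and 779 in the wild type, a difference of 0.27. Oas3 (0.19) and Oasl2 (0.13) were within the SD between probe sets on the higher side, and Oasl1, a family member without synthetase activity, was within it on the lower side (-0.12). Of this family, Oas1a and Oas2 alone therefore stood beyond that SD, both higher.

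The Ifit proteins bind viral RNA and hold back its translation. Ifit1 read 303 in the knockout and 471 in the wild type, a difference of -0.62 (1.54-fold lower). Ifit2 read 266 in the knockout and 255 in the wild type, a difference of 0.07. Ifit3 read 37.0 in the knockout and 30.9 in the wild type, a difference of 0.27 just above the array medians. The 3 genes all lie on chromosome 19 and did not move as 1 block in these samples.

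The other effectors act in several ways and went both ways. Eif2ak2, the kinase that stops translation on double-stranded RNA, read 297 in the knockout and 224 in the wild type, a difference of 0.42. Its dimmer probe sets differed by 0.11 and 0.03, so the difference rests on the brightest. Adar, an RNA-editing deaminase known to be needed for stem cell maintenance in mice, read 345 in the knockout and 289 in the wild type, a difference of 0.27. Its other probe sets differed by 0.29 and, in the dimmest (59.9 in the knockout and 31.6 in the wild type), by 0.94, so all 3 were higher. Samhd1, which breaks down nucleotides, differed by 0.05 to 0.12 in its 3 detected probe sets, within the SD between probe sets.

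Bst2 and Rsad2 were lower in the knockout. Bst2, which tethers budding virus to the cell surface, read 394 in the knockout and 466 in the wild type, a difference of -0.23 by its only probe set. Rsad2, an enzyme that makes an antiviral nucleotide, read 631 in the knockout and 758 in the wild type, a difference of -0.25. Its dimmer probe sets differed by -0.61 and -0.03, so all 3 were lower but by unlike amounts. The probe set shared by Isg15 and Gm9706, which the gene counts leave out, read 700 in the knockout and 853 in the wild type, a difference of -0.27.

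**Figure D3:**
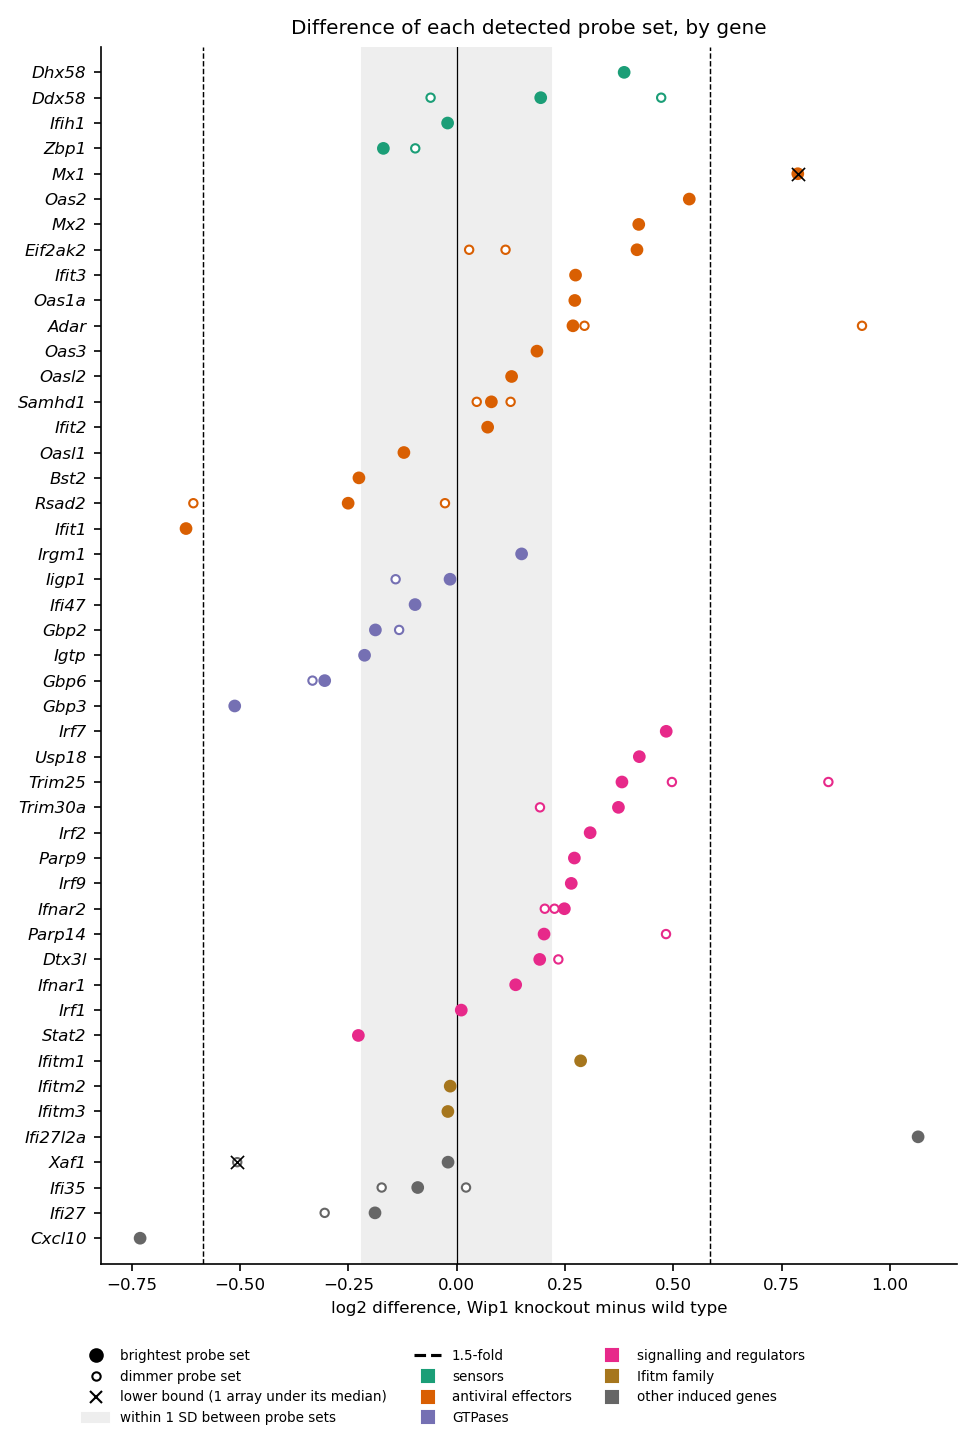
Log2 difference (knockout minus wild type) of each detected probe set, with 1 line for each gene. Filled points are the brightest probe set, open points dimmer ones and crosses lower bounds, the grey band is 1 SD (0.22) of the disagreement among a gene's probe sets, and dashed lines mark 1.5-fold. The signalling genes stand to the right of 0 except Stat2, and the GTPase genes to the left except Irgm1.

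The immune GTPases, which attack the vacuoles around intracellular pathogens, were mostly on the lower side among the listed genes. Of 7 genes 6 were lower, or 5 after loess, where Iigp1 turned from -0.02 to 0.0022, and the median difference was -0.19. Gbp3, a guanylate-binding protein gene, read 496 in the knockout and 714 in the wild type, a difference of -0.51 (1.43-fold lower). Gbp6 read 76.0 in the knockout and 94.8 in the wild type, with differences of -0.30 and -0.33 in its 2 probe sets. Gbp2 read 320 in the knockout and 368 in the wild type, with differences of -0.19 and -0.13. All 3 Gbp genes were thus lower in every probe set, and none reached 1.5-fold.

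The immunity-related GTPases stayed within the SD between probe sets. Igtp read 336 in the knockout and 393 in the wild type, a difference of -0.21. Ifi47 read 963 in the knockout and 1040 in the wild type, a difference of -0.10. Irgm1, which is known to be required for normal stem cell renewal in mice, read 322 in the knockout and 293 in the wild type, a difference of 0.15. It was the only listed GTPase gene on the higher side, apart from Iigp1 after loess. By their brightest probe set, relatives outside the list did not share the lower side. Irgm2 read 79.8 in the knockout and 65.2 in the wild type (0.31), and Gbp8 read 45.6 in the knockout and 43.3 in the wild type (0.09). Gbp7 read 733 in the knockout and 737 in the wild type, a difference of 0.0042 that is above 0 only after centring. The dimmer probe set of Gbp7 read 599 in the knockout and 682 in the wild type, a difference of -0.17, so its side depends on the probe set.

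Genes of interferon signalling and its control were on the higher side in 12 of 13 cases, or 11 without centring, where Irf1 turned from 0.01 to -0.0030. Their median difference was 0.26, and none reached 1.5-fold. Without probe sets of the classes that match several transcripts, 6 of the genes were left, 5 higher and 1 lower, with a median of 0.20. Ifnar2, a receptor chain, read 681 in the knockout and 579 in the wild type, and its 3 probe sets differed by 0.20, 0.23 and 0.25. Ifnar1, the other chain, whose gene is also on chromosome 16, read 117 in the knockout and 107 in the wild type, a difference of 0.14. Irf9, the DNA-binding part of the complex activated by type I interferon, read 302 in the knockout and 254 in the wild type, a difference of 0.26. Stat2, its partner, was dim, at 35.5 in the knockout and 41.9 in the wild type, and was the only lower gene of the group (-0.23). The receptor and Irf9 differences are close to the SD between probe sets.

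The other interferon regulatory factors of the list differed by unlike amounts. Irf7, the factor that amplifies interferon production, read 218 in the knockout and 157 in the wild type, a difference of 0.48 (1.40-fold). Irf2, a repressor known in mice to protect stem cells from exhaustion by type I interferon, read 513 in the knockout and 418 in the wild type, a difference of 0.31. Irf1, which acts in both interferon pathways, read 1136 in the knockout and 1139 in the wild type, nearly the same value. Each was measured by 1 probe set of the classes that match several transcripts.

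Usp18, a protease that removes Isg15 from proteins and damps the receptor, read 261 in the knockout and 197 in the wild type, a difference of 0.42. Trim25, a ubiquitin ligase that assists Ddx58, read 928 in the knockout and 720 in the wild type, and its 3 probe sets differed by 0.38, 0.50 and 0.86. Trim30a read 700 in the knockout and 546 in the wild type, with differences of 0.37 and 0.19. A further probe set that Trim30a shares with Trim30d differed by 0.31. The probe sets of Trim25 and Trim30a therefore agreed in direction, and all are of the classes that match several transcripts. Usp18 rests on 1 probe set.

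Parp9, Dtx3l and Parp14 lie side by side on chromosome 16 and encode partners in ADP-ribosylation and ubiquitin transfer. Parp9 read 420 in the knockout and 351 in the wild type, a difference of 0.27. Dtx3l, whose gene overlaps Parp9, differed by 0.19 and 0.23, and Parp14 by 0.20 and 0.48. All 5 probe sets of these neighbours were higher, by amounts near the SD between probe sets in all but the dimmest.

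The Ifitm genes encode membrane proteins that block virus entry and are known as stem cell expressed genes without infection. Ifitm1 read 7093 in the knockout and 5872 in the wild type, a difference of 0.29. Ifitm2 read 2443 in the knockout and 2492 in the wild type, a difference of -0.02 that turned to 0.02 after loess and 0.03 after quantile normalization. Ifitm3 read 4219 in the knockout and 4320 in the wild type, a difference of -0.02 that turned to 0.0051 after loess. All 3 were far above the 75th percentile of both arrays (113 in the knockout and 111 in the wild type), and Ifitm1 alone differed by more than the SD between probe sets.

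The remaining genes held the largest differences of the list in both directions. Ifi27l2a, a small hydrophobic interferon-induced protein gene, read 237 in the knockout and 114 in the wild type, a difference of 1.06 (2.09-fold) by its only probe set. Ifi27, a relative whose gene overlaps it on chromosome 12, read 1138 in the knockout and 1310 in the wild type, with differences of -0.19 and -0.30 in its 2 probe sets. Overlapping relatives thus stood on opposite sides of 0. Cxcl10, a chemokine strongly induced by interferon gamma, read 1138 in the knockout and 1907 in the wild type, a difference of -0.73 (1.66-fold lower) by its only probe set.

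Ifi35, whose protein binds the interferon-induced protein Nmi, differed by -0.17, -0.09 and 0.02 in its 3 probe sets. Xaf1, which antagonises an inhibitor of caspases, read 592 in the knockout and 606 in the wild type by its brightest probe set, a difference of -0.02 that turned to 0.02 after loess. Its dimmer probe set read 13.8 in the knockout, under the median, and 37.1 in the wild type, a difference of -0.51 or lower. The probes of Xaf1 therefore did not tell the same size of difference.

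Among the 17 genes with 2 or more detected probe sets, 8 were higher in every one, 7 were lower in every one and 2, Ddx58 and Ifi35, had both signs. The other 30 genes rest on a single detected probe set, among them all 4 genes past 1.5-fold. The 25 dimmer detected probe sets had a median difference of 0.05, against 0.14 for the 47 brightest.

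**Figure D4:**
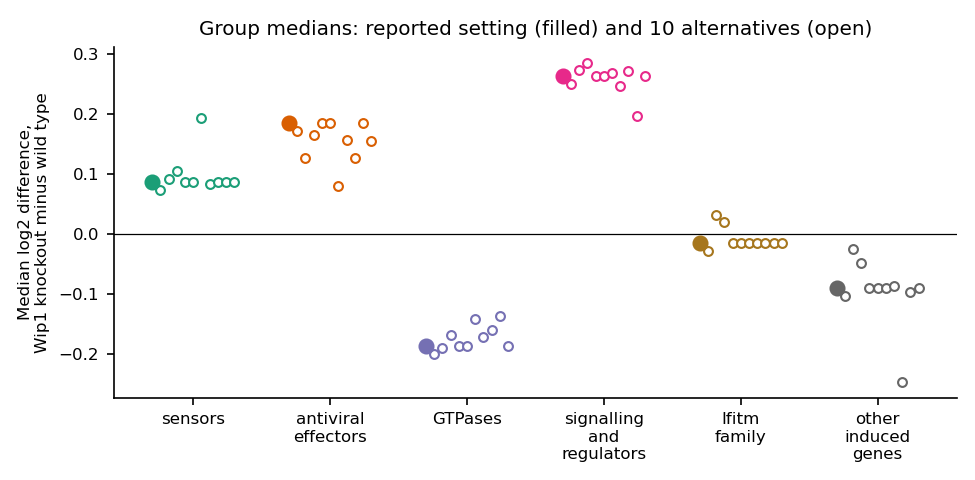
Median log2 difference (knockout minus wild type) of each functional group, with a filled point for the reported setting and open points for 10 alternatives in scaling, floor, offset, probe set choice and detection. The signalling median ranged from 0.20 to 0.29 and the GTPase median from -0.20 to -0.14, the antiviral effector median ranged from 0.08 to 0.19, and the Ifitm median crossed 0.

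Among the listed genes with a promoter entry, the response element did not go with one direction. The 19 detected genes with the motif held 8 higher and 11 lower genes, with a median difference of -0.02 and a range of -0.73 to 0.42. The 16 without it held 12 higher and 4 lower genes, with a median of 0.13 and a range of -0.12 to 0.48. Both genes past 1.5-fold that had a promoter entry, Ifit1 and Cxcl10, had the motif and were lower. The 12 genes without an entry are left out of these values. Of them Ifi27l2a, Mx1, Oas2, Mx2, Usp18, Dhx58, Parp9 and Parp14 were higher, and Gbp6, Ifi27, Zbp1 and Iigp1 lower. They include both genes at least 1.5-fold higher, Ifi27l2a and Mx1, so both medians depend on which promoters were at hand. Over the 346 detected genes of the array with the motif the median was 0.0072. By group, the motif was found in 4 of 5 GTPase genes (all but Ifi47), 8 of 13 antiviral effectors and 3 of 10 signalling genes, so function and motif overlap in this list.

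**Figure D5:**
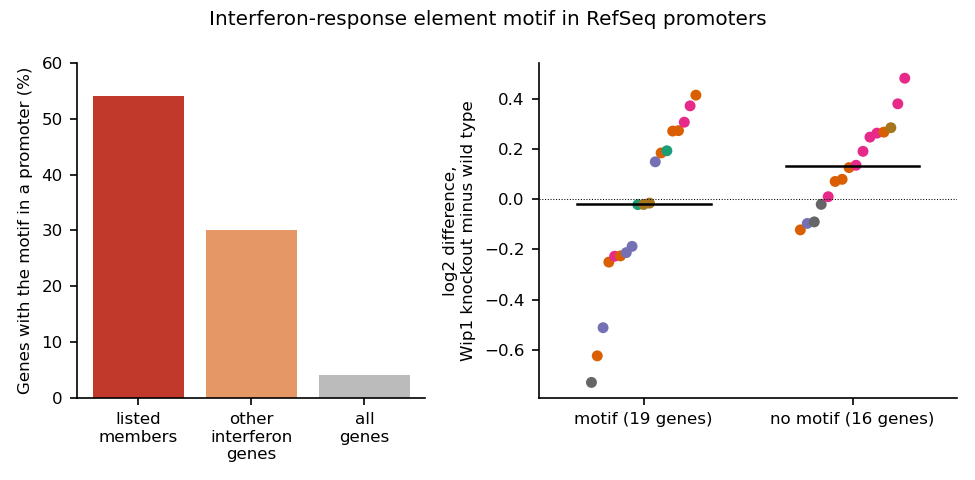
Left, share of genes (%) with the response element motif in a RefSeq promoter, for the listed genes (54.1%), other interferon genes (30.0%) and all genes (3.99%). Right, log2 difference (knockout minus wild type) of listed genes with and without the motif, with a line at each median (-0.02 and 0.13). Listed genes without a promoter entry are not drawn there, and colours mark the functional group as in the other plots.

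A further 103 interferon genes outside the list were followed, of which 86 had a probe set and 73 were detected. Above the 75th percentile of both arrays lay 50 of the 86 (58.1%), against 83.0% of the listed genes and 36.9% of all genes. Of the 73 detected genes 49 were higher and 24 lower, with a median difference of 0.07. At 1.5-fold 5 (6.85%) were higher and 2 (2.74%) lower, against the backgrounds of 2.30% and 1.55%. The motif was found in 24 of 80 matched genes (30.0%).

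The higher genes were Trim34a, Tlr7, Irf8, Slfn8 and Slfn5. Trim34a, a relative of Trim30a, read 446 in the knockout and 240 in the wild type, a difference of 0.91, while its dimmer probe set differed by -0.35. Irf8, a transcription factor of myeloid and dendritic cells, read 531 in the knockout and 315 in the wild type, with differences of 0.77 and 0.63 in its 2 probe sets. Tlr7, an endosomal RNA sensor, was dim, at 46.3 in the knockout and 26.7 in the wild type, a difference of 0.81. Also higher were the Schlafen genes Slfn8 (0.75) and Slfn5 (0.63), which lie near Ppm1d, the targeted gene. The part of that position in their values was not tested. Of the 5 higher genes 2, Tlr7 and Slfn5, lay under the 75th percentile of both arrays.

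The lower genes were Phf11d, at 154 in the knockout and 288 in the wild type (-0.89), and Ccl5, at 274 in the knockout and 446 in the wild type (-0.69). Ccl5 is a chemokine of inflamed tissue and went the same way as Cxcl10. Its gene also lies near Ppm1d, and the part of that position in its value was not tested. Phf11d and Ccl5 each had 1 detected probe set.

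The receptor chains and kinases outside the list lay close to 0, all on the higher side by their brightest probe set. Differences were 0.12 for Ifngr1 and 0.11 for Ifngr2, the interferon gamma receptor chains, 0.13 for Jak1, 0.07 for Tyk2, 0.02 for Jak2, 0.05 for Stat3 and 0.37 for Il10rb. Dimmer probe sets of Jak1, Jak2, Tyk2 and Stat3 included values below 0, and one of Stat3 a value of 1.12, so the shared sign depends on the probe set. Of 5 interferon genes measured, Ifna2, Ifna4 and Ifng were under the median on both arrays, and Ifna1 (31.2 in the knockout and 29.6 in the wild type) and Ifnb1 (27.5 in the knockout and 31.4 in the wild type) barely above it. Antigen presentation genes had a median of -0.10, with 2 of 6 higher.

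Some marker genes of other blood cells differed alongside Tlr7 and Irf8. The dendritic cell list, which holds Irf8 and Bst2, had 6 of 9 measured markers detected, 5 of them higher, with a median difference of 0.65. Flt3, which progenitors also express, read 2112 in the knockout and 892 in the wild type (1.26), and gave most of the difference between the list's summed intensities of 4163 in the knockout and 2429 in the wild type. Without Flt3 the sums were 2051 in the knockout and 1537 in the wild type. Cox6a2 read 136 in the knockout and 59.0 in the wild type (1.22). Tcf4 read 914 in the knockout and 635 in the wild type (0.54), and of the detected markers Bst2 alone was lower (-0.23). The defining markers Siglech, Spib and Xcr1 were under the median on both arrays.

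Monocyte and macrophage markers summed to 2523 in the knockout and 2114 in the wild type, which turned on Csf1r, the receptor of the macrophage growth factor. Csf1r read 770 in the knockout and 294 in the wild type (1.40), and without it the sums were 1753 in the knockout and 1820 in the wild type. Of the 9 detected markers 5 read higher in the knockout and 3 lower, among them Ccr2 (-0.45). Fcgr1 had the same value on both arrays, and Adgre1 was under the median. Csf1r and C1qc were at least 1.5-fold higher, and no marker was 1.5-fold lower. C1qc was dim, at 45.2 in the knockout and 24.3 in the wild type, under the median, so its difference is at least 0.85. Markers of T and natural killer cells summed to 782 in the knockout and 963 in the wild type. Nkg7, at 668 in the knockout and 835 in the wild type, made up most of both sums, and Cd3d, Cd3g, Ncr1 and Gzma were under the median. B cell markers summed to 318 in the knockout and 273 in the wild type, and erythroid markers to 199 in the knockout and 205 in the wild type, or to 139 in the knockout and 125 in the wild type without Epor. The part of these cells in the differences above was not tested.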

How the data were processed

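Per the labels, total RNA was labelled and hybridised to Affymetrix arrays. The authors deposited 1 summarised intensity for each of 45037 probe sets and 2 arrays. The submitters' processing notes name MAS5, with no version. A total of 2535 probe sets (5.63%) held the same value on both arrays, so how the values were made is not settled, nor is its effect on small differences. The number of arrays limits the precision.

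The platform annotation gave 1 gene to 34945 probe sets, several to 932 and none to 9160, and RefSeq (GRCm38.p6) held the gene identifier of 34741 of the first. Values were converted to log2 and centred by a shift of -0.0134 in Python 3.11.15 (numpy 2.4.6, pandas 2.3.3), with loess from statsmodels 0.14.6 (span 0.3). The procedure was tested on simulated data. No p-value was computed. All listed genes may be named, and of the other interferon genes those past 1.5-fold. Others (receptors, ligands, GTPases, markers) were named, and marker sums given without 1 gene, after their values were seen. The genes and lists were chosen with earlier results of these data known. Alternatives covered scaling, floor, offset, probe set choice, probe set class, detection and fold size.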

Additional observations from a re-analysis of the deposited data

How the results depend on the processing

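The median difference of the 47 genes stayed between 0.11 and 0.14 in 9 of 10 alternatives, and was 0.0756 over the 36 genes left once probe sets named _s_at, _x_at or _a_at were dropped. The count of genes at least 1.5-fold higher was 1 in place of 2, Ifi27l2a without Mx1, with a floor at the 75th percentile, with the floor added as an offset, with those names dropped and with both arrays required above the floor. At 2-fold it was 1, and the count of lower genes was 0. With the offset the count of lower genes was 1, Cxcl10 without Ifit1. Of 451 values of single genes under the alternatives, 448 moved by under 1 SD between probe sets. The other 3 were Mx1 (0.49 with the offset), Xaf1 (-0.26, the median over its probe sets) and Eif2ak2 (0.11 likewise). Many of the 451 values could hardly move. The centring shift was only -0.0134, and removing or lowering the floor cannot change a gene above it on both arrays. The median over probe sets cannot change the 30 genes with 1 detected probe set. No gene past 1.5-fold changed sign. No paired analysis was possible because each genotype has 1 array, and for the same reason no array could be left out. Genes near the array medians, such as Mx1, Ifit3 and Stat2, are limited by signal over background.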
